A study of Rattus norvegicus with 6 samples.

Results

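The cytochrome P450 genes of families 1 to 3 were followed in rat liver after total parenteral nutrition (TPN), in which all nutrients are infused into a vein. The rule took every row of the deposited expression table whose symbol begins with Cyp1, Cyp2 or Cyp3 followed by a letter. It found 36 genes of 25926 features. The 3 TPN rats received the infusion for 7 days and carried the disease label PNALD (parenteral nutrition-associated liver disease), and the 3 control rats received 0.9% saline. Strain and age were alike in both groups (Sprague-Dawley, 4 weeks old by the labels), each rat gave 1 liver library, and the labels do not give the sex. The values are FPKM, fragment counts adjusted for transcript length and for library size.

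Enzymes of these families are heme proteins of the endoplasmic reticulum that add an oxygen atom to drugs, other foreign chemicals, steroids, retinoids and fatty acids. They take electrons from the reductase Por and from cytochrome b5. In liver, the aryl hydrocarbon receptor Ahr is known to drive Cyp1a genes, the receptor CAR (Nr1i3) Cyp2b genes and the receptor PXR (Nr1i2) Cyp3a genes, while several rat Cyp2c genes differ between adult males and females through the pattern of growth hormone release.

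The label fitted liver, since the hepatocyte list summed to between 55050 and 75190 FPKM in TPN rats and to between 68373 and 83393 in control rats, while 6 kidney and lung markers summed to at most 0.0885 FPKM in any rat. The FPKM of a whole sample summed to between 509630 and 544670. The libraries TPN 1 and control 2 stood apart. The acute-phase gene Lcn2, which encodes an iron-binding protein, measured 9127, 172 and 77.2 FPKM in TPN 1, 2 and 3, against 3.68, 112 and 7.29 FPKM in control 1, 2 and 3. A2m, the acute-phase protease inhibitor, measured 1696, 80.8 and 35.2 FPKM in the TPN rats, against 1.202, 84.1 and 6.69 FPKM in the control rats. TPN 1 was thus far above all others and control 2 above the other controls.

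Most P450 genes of these families were lower in TPN liver, and the summed FPKM of all 36 did not overlap between the groups. The sum was 3255, 7184 and 7933 FPKM in TPN 1, 2 and 3, against 10221, 8304 and 9218 FPKM in control 1, 2 and 3. All TPN rats lay below all control rats, and TPN 1 lay far below the other TPN rats. This separation rested on Cyp2c7, which held 18.6% of the mean control sum and 3.72% of the mean TPN sum. Summed without Cyp2c7 the groups overlapped, with TPN 2 and TPN 3 above control 2. The means were 6124 ± 2513 FPKM in TPN and 9248 ± 959 FPKM in control (SD, n = 3 each), a ratio of 0.662, which was 0.817 without TPN 1. As a share of all FPKM in a library the P450 genes held 0.639%, 1.39% and 1.496% in the TPN rats, against 1.88%, 1.59% and 1.79% in the control rats. In such bulk samples fewer cells of a type and less RNA per cell cannot be told apart.

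Of the 36 genes, 26 reached a mean of 1 FPKM over the 6 rats and were tested together with all 11362 such features by limma on log2(FPKM + 1). Another 5 lay above 0 but under 1 FPKM, and 5 were listed at 0 in all rats. No P450 gene passed a Benjamini-Hochberg adjusted p under 0.05, where 0.22% of all features were called lower and 0.0264% higher. At an unadjusted limma p under 0.05, 7 of the 26 were lower, against 7.01% of all features, and 1 was higher, against 4.44%. The log2 fold change was below 0 in 22 of the 26, or 84.6%, against 49.1% of all features tested, and its median was -0.61 against 0.0065 over all features. In 8 of the 26 the values were lower in TPN without overlap between the groups, against 9.09% of all features, and in 1, Cyp3a62, they were higher without overlap, against 8.02%. These genes sit in families that share sequence, and reads from near-identical copies could have been split among them in a way not given in the sources used here.

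TPN 1 was the lowest of the 6 rats in 19 of the 26 genes, against 31.4% of all features, and the lowest of the 3 TPN rats in 22, against 49.3%. Without TPN 1, 15 of the 26 log2 fold changes were below 0 and 11 above, with a median of -0.26, where 43.5% of all features were below 0. In that fit 6 genes were lower at an unadjusted limma p under 0.05, against 5.97% of all features, and 3 were higher, against 7.09%. None passed after adjustment. Of the 8 genes without overlap, Cyp2c7, Cyp2c23, Cyp2t1, Cyp1a2, Cyp2f4, Cyp2r1 and Cyp2a3 stayed at -0.65 or below without TPN 1, and Cyp2d2 was at -0.31. Cyp2e1, Cyp2d1, Cyp2d4, Cyp2d5, Cyp2j4 and Cyp2j10 were low mainly in TPN 1. The acute-phase values given above moved with TPN 1 and control 2, and their part in the P450 values was not tested.

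**Figure D1:**
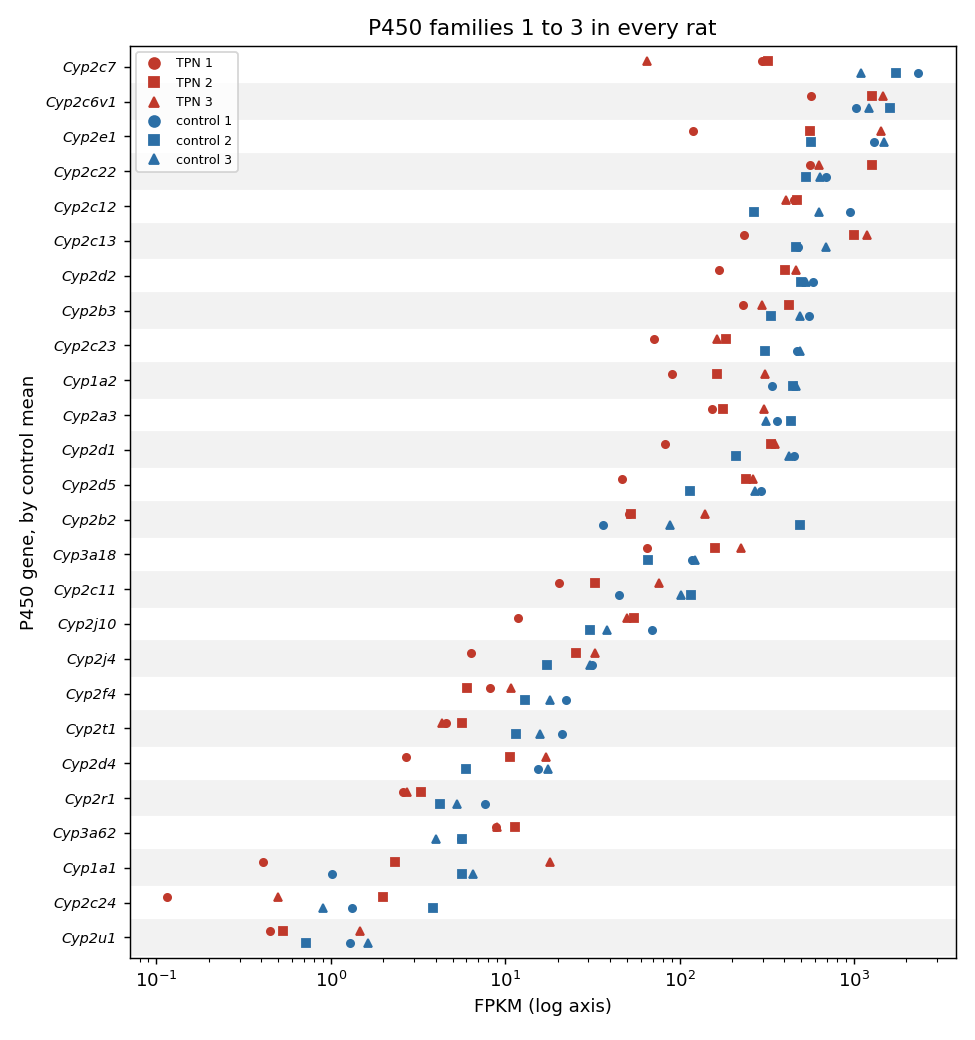
FPKM (log axis) of the 26 tested P450 genes in every rat, ordered by their control mean, with TPN rats in red above control rats in blue. Cyp2c7 shows the widest gap between groups, 65.4 to 322 FPKM in TPN and 1099 to 2331 in control, and TPN 1 is the lowest rat in 19 of the 26 genes.

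The Cyp2c subfamily was the most abundant, and its make-up differed between groups because of Cyp2c7. The 8 Cyp2c rows summed to 2201, 4547 and 3991 FPKM in TPN 1, 2 and 3, against 5994, 5039 and 4872 FPKM in control 1, 2 and 3. The groups did not overlap. The means were 3580.1 ± 1226 FPKM in TPN and 5302 ± 605 FPKM in control (SD, n = 3 each), a ratio of 0.675. The separation came from Cyp2c7. Summed without it, the Cyp2c rows overlapped, with TPN 2 and TPN 3 above all controls and TPN 1 below them.

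Cyp2c7, which is female-predominant in adult rats and acts on retinoids and steroids, measured 295, 322 and 65.4 FPKM in the TPN rats, against 2331, 1742 and 1099 FPKM in the control rats. Every TPN rat was more than 3-fold below the lowest control, and TPN 3, not TPN 1, was the lowest. The mean was 7.57-fold lower in TPN (228 ± 141 FPKM in TPN and 1724 ± 616 FPKM in control, SD, n = 3 each), with a log2 fold change of -3.15 (SE 0.64, limma unadjusted p = 0.00166, adjusted p = 0.157). It was -3.49 without TPN 1. Cyp2c7 made up 13.4%, 7.08% and 1.64% of the Cyp2c sum in the TPN rats, against 38.9%, 34.6% and 22.6% in the control rats. By mean FPKM it ranked 9 among the 26 genes in TPN and 1 in control.

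Cyp2c23, an arachidonic acid epoxygenase, measured 71.8, 184 and 165 FPKM in the TPN rats, against 471, 310.2 and 493 FPKM in the control rats. The groups did not overlap, and TPN 1 was the lowest. Its log2 fold change was -1.67 (SE 0.38, limma unadjusted p = 0.00254, adjusted p = 0.174), and -1.25 without TPN 1. Cyp2c11, the main male form of adult rat liver, measured 20.3, 33.0 and 76.0 FPKM in the TPN rats, against 44.9, 116 and 102 FPKM in the control rats. The groups overlapped through TPN 3 and control 1, with a log2 fold change of -1.11 (limma adjusted p = 0.503), and -0.68 without TPN 1. Cyp2c24 was low throughout, at 0.115 to 2.003 FPKM in TPN and 0.897 to 3.84 FPKM in control.

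The other abundant Cyp2c genes did not differ beyond their spread. Cyp2c6v1, a constitutive form, measured 567, 1270.3 and 1468 FPKM in the TPN rats, against 1024, 1606 and 1216 FPKM in the control rats. Cyp2c12, a steroid sulfate hydroxylase of adult female liver, measured 452, 471 and 405 FPKM in the TPN rats, against 952, 268 and 633 FPKM in the control rats. The groups overlapped in both genes, and control 2 was the lowest rat for Cyp2c12. Cyp2c13, a male form, measured 235, 1003 and 1182 FPKM in the TPN rats, against 475, 463 and 690.3 FPKM in the control rats. Cyp2c22, a male-predominant retinoid hydroxylase, measured 560.0, 1262 and 629.7 FPKM in the TPN rats, against 694, 529.5 and 637 FPKM in the control rats. For Cyp2c13, TPN 1 lay below all controls while TPN 2 and TPN 3 lay above them. The 95% intervals of the log2 fold change in limma's fit ran from -1.21 to 0.60 for Cyp2c6v1, -1.31 to 0.70 for Cyp2c12, -1.13 to 1.71 for Cyp2c13 and -0.47 to 1.09 for Cyp2c22. The sign depended on single rats, since the log2 fold change was -0.31 for Cyp2c6v1 and 0.12 without TPN 1, -0.30 for Cyp2c12 and 0.099 without control 1, 0.29 for Cyp2c13 and -0.017 without TPN 2 or -0.14 without TPN 3, and 0.31 for Cyp2c22 and -0.054 without TPN 2. Without TPN 1, Cyp2c13 was at 1.03 (limma unadjusted p = 0.00397, adjusted p = 0.173).

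The promoters of Cyp2c7, Cyp2c12 and Cyp2c13 are shown because these genes of chromosome 1 share promoter elements and differ in their values. Each is the RefSeq window of GRCr8 from 250 bases before to 50 after the gene's start, at chr1:247966144-247966443 (+ strand) for Cyp2c7, chr1:248676985-248677284 (- strand) for Cyp2c12 and chr1:248787139-248787438 (- strand) for Cyp2c13. Capitals mark matches, on either strand, to CAAAGNNCA (a core bound by HNF4 and related receptors), TATAAA, TTGCNNAA (C/EBP type), TGTTTAC (FOXA type), GCGTG (the core bound by Ahr) and TTATGTAA (the D-box).
Cyp2c7: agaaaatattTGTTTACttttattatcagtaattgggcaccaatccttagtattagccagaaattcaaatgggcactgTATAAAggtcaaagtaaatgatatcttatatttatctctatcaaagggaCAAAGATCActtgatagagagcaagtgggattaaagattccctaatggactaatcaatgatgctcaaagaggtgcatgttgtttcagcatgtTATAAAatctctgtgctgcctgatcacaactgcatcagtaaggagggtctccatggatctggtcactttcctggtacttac
Cyp2c12: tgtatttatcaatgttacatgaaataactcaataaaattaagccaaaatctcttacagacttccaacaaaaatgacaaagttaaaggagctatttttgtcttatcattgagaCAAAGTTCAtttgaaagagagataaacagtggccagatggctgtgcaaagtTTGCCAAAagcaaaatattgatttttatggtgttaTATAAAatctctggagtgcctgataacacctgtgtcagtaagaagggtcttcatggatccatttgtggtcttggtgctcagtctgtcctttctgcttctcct
Cyp2c13: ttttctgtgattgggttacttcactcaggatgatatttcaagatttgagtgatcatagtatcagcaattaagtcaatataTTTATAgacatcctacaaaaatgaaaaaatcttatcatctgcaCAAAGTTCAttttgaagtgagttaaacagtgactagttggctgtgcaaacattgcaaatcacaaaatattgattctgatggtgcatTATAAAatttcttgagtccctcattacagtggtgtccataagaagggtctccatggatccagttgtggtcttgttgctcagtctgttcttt
All 3 held a CAAAGNNCA match, which begins 123 bases before the start in Cyp2c7, 138 in Cyp2c12 and 127 in Cyp2c13, and a TATAAA match downstream of it. Over all columns of a pairwise alignment, gaps included, Cyp2c7 was 59.9% identical to Cyp2c12 and 56.8% to Cyp2c13, and Cyp2c12 was 67.5% identical to Cyp2c13. The 3 genes had log2 fold changes of -3.15, -0.30 and 0.29 beside these shared letters. CAAAGNNCA was found in 7 of the 24 tested P450 genes with a promoter in the table, or 29.2%, against 5.88% of 27457 promoters. The 7 were Cyp2a3, Cyp2c7, Cyp2c12, Cyp2c13, Cyp2d1, Cyp2d2 and Cyp2d5. Some are close relatives, with Cyp2d1 and Cyp2d5 73.7% identical, so these promoters are not independent. The comparison covered all promoters, not only those of genes expressed in liver, and no share was tested. TTGCNNAA was in 33.3% against 10.5%, TATAAA in 12 of the 24 against 14.3%, TGTTTAC in 12.5% against 3.80%, TTATGTAA in 4.17% against 0.885% and GCGTG in 16.7% against 30.9%. None of these matches overlapped another motif in the windows printed here.

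**Figure D2:**
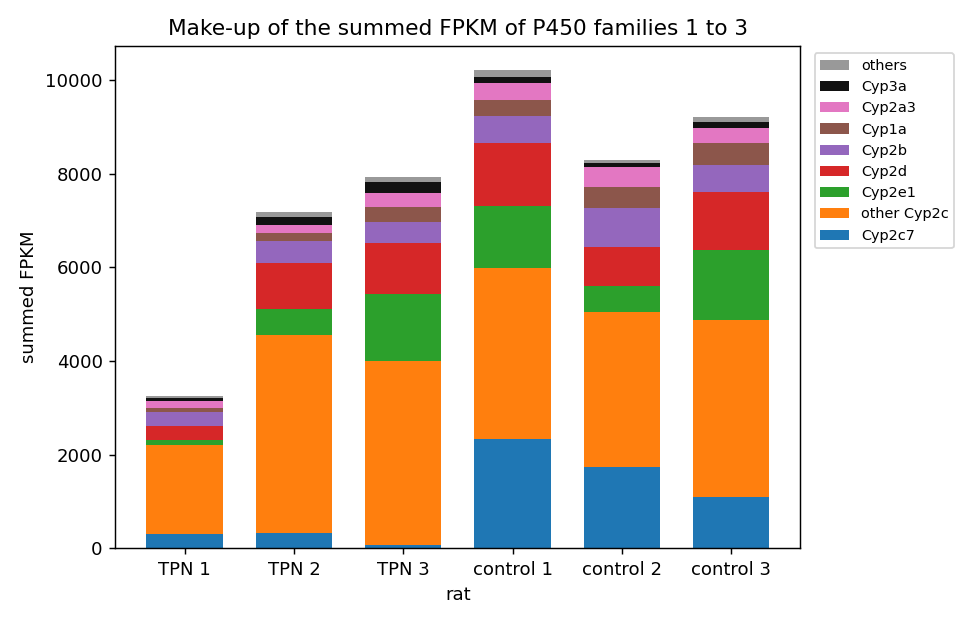
Stacked summed FPKM of the 36 P450 genes in each rat, with TPN rats on the left and control rats on the right, split into Cyp2c7, the other Cyp2c genes and further groups. The Cyp2c7 layer is 65.4 to 322 FPKM in TPN rats and 1099 to 2331 FPKM in control rats, and the whole bar is lowest in TPN 1 at 3255 FPKM.

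In family 1, Cyp1a2 was lower in all TPN rats, while Cyp1a1 varied without regard to group. Cyp1a2, which oxidises caffeine and aromatic amines and is a constitutive liver form, measured 90.8, 164 and 311 FPKM in TPN 1, 2 and 3, against 339.9, 449.6 and 466 FPKM in control 1, 2 and 3. The groups did not overlap, though TPN 3 came near control 1. The mean was 2.22-fold lower in TPN (189 ± 112 FPKM in TPN and 418 ± 68.5 FPKM in control, SD, n = 3 each), with a log2 fold change of -1.31 (SE 0.42, limma unadjusted p = 0.0152, adjusted p = 0.324). It was -0.87 without TPN 1. Cyp1a1, the classic Ahr target, measured 0.408, 2.32 and 18.1 FPKM in the TPN rats, against 1.02, 5.67 and 6.54 FPKM in the control rats. TPN 3 was the highest and TPN 1 the lowest of all rats, and the log2 fold change of -0.061 had a 95% interval from -2.58 to 2.45. Leaving out control 2 gave 0.20 and leaving out control 3 gave 0.29, while leaving out TPN 1 gave 0.77 and leaving out TPN 2 gave 0.15. Cyp1b1, a mostly extrahepatic form, stayed at or under 0.278 FPKM in every rat.

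Cyp2a3, the only Cyp2a row, measured 153, 179 and 307 FPKM in the TPN rats, against 363, 436 and 315 FPKM in the control rats. The groups were separated only by the small gap between TPN 3 and control 3. The log2 fold change was -0.85 (SE 0.30, limma unadjusted p = 0.0212, adjusted p = 0.350), and -0.65 without TPN 1. Rat Cyp2a3 is known chiefly from lung and nasal tissue, and Cyp2a1 and Cyp2a2, its relatives in liver, were not analysed here.

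The 5 Cyp2b rows summed to 282, 479 and 438 FPKM in the TPN rats, against 592, 826 and 581 FPKM in the control rats. These sums did not overlap, with a ratio of the means of 0.599, which was 0.681 without control 2. Cyp2b2, the phenobarbital-inducible CAR target, measured 51.4, 52.8 and 139.8 FPKM in the TPN rats, against 36.5, 492 and 88.7 FPKM in the control rats. Control 2 stood far above every other rat, and the groups overlapped. The log2 fold change of -0.69 (limma adjusted p = 0.845) was 0.34 without control 2. Cyp2b3, a constitutive liver form, measured 230.2, 426 and 298 FPKM in the TPN rats, against 555, 334 and 492 FPKM in the control rats, with overlap and a log2 fold change of -0.55 (95% interval -1.25 to 0.16). Cyp2b12 and Cyp2b15 were under 0.1 FPKM in every rat, and Cyp2b21 was listed at 0 in all 6.

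The 4 Cyp2d genes, relatives of the human enzyme that oxidises debrisoquine, were all lowest in TPN 1. They summed to 300.3, 988 and 1103 FPKM in TPN 1, 2 and 3, against 1344, 827 and 1248 FPKM in control 1, 2 and 3. Control 2 had the lowest sum of the controls, and the groups overlapped. Cyp2d1 measured 82.1, 335 and 355 FPKM in the TPN rats, against 454, 210.0 and 426 FPKM in the control rats. Cyp2d2 measured 169, 401 and 466 FPKM in the TPN rats, against 579.9, 497 and 534 FPKM in the control rats. Of the 4 genes only Cyp2d2 did not overlap between groups. Cyp2d5 measured 46.5, 241 and 265 FPKM in the TPN rats, against 295, 115 and 270.2 FPKM in the control rats. Cyp2d4, best known from brain, measured 2.70, 10.7 and 17.2 FPKM in the TPN rats, against 15.3, 5.96 and 17.7 FPKM in the control rats. TPN 1 stood at 0.184 to 0.390 of the mean of the other TPN rats in these 4 genes. The log2 fold changes were -0.68, -0.76, -0.53 and -0.48 for Cyp2d1, Cyp2d2, Cyp2d5 and Cyp2d4 (limma adjusted p from 0.495 to 0.844), and 0.0035, -0.31, 0.27 and 0.18 without TPN 1.

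Cyp2e1, which oxidises ethanol, ketones and acetaminophen, measured 119, 557 and 1429.9 FPKM in the TPN rats, against 1311, 569 and 1494 FPKM in the control rats. TPN 1 was the lowest rat, TPN 2 lay beside control 2, and TPN 3 lay among the other controls. The log2 fold change was -1.18 (95% interval -3.36 to 1.001, limma adjusted p = 0.679). It was -0.22 without TPN 1 and -2.003 without TPN 3. The 2 expressed Cyp2j genes were likewise lowest in TPN 1. Cyp2j4, an arachidonic acid epoxygenase, measured 6.39, 25.4 and 32.6 FPKM in the TPN rats, against 31.7, 17.3 and 30.5 FPKM in the control rats. Cyp2j10 measured 11.9, 54.5 and 49.8 FPKM in the TPN rats, against 69.2, 30.5 and 38.4 FPKM in the control rats. In both, control 2 was the lowest control, and the log2 fold changes of -0.51 and -0.42 were 0.16 and 0.26 without TPN 1. Cyp2j16 was listed at 0 in all rats.

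Cyp2t1, Cyp2f4 and Cyp2r1, less abundant genes of family 2, were lower in all TPN rats. The spread among the TPN rats was small for Cyp2t1 and Cyp2r1 and wider for Cyp2f4. Cyp2t1 measured 4.59, 5.69 and 4.32 FPKM in TPN 1, 2 and 3, against 21.1, 11.5 and 15.7 FPKM in control 1, 2 and 3. The groups did not overlap and TPN 1 lay with the other TPN rats. The mean was 3.31-fold lower in TPN (4.87 ± 0.728 FPKM in TPN and 16.1 ± 4.81 FPKM in control, SD, n = 3 each). Its log2 fold change of -1.51 (SE 0.23) had the smallest p of the 26 genes (limma unadjusted p = 0.000161, adjusted p = 0.0580). It was -1.48 without TPN 1 (adjusted p = 0.0912), and without control 2 it was -1.72 and passed (limma adjusted p = 0.0381).

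Cyp2f4, the naphthalene-oxidising form, measured 8.22, 6.01 and 10.8 FPKM in the TPN rats, against 22.3, 13.0 and 18.1 FPKM in the control rats. The groups did not overlap, and the log2 fold change was -1.01 (SE 0.26, limma unadjusted p = 0.00437, adjusted p = 0.206) and -1.02 without TPN 1. Cyp2r1, the vitamin D 25-hydroxylase, measured 2.60, 3.28 and 2.75 FPKM in the TPN rats, against 7.68, 4.25 and 5.32 FPKM in the control rats. These groups did not overlap either, with a log2 fold change of -0.77 (SE 0.20, limma unadjusted p = 0.00563, adjusted p = 0.225) and -0.72 without TPN 1. Cyp2u1, a fatty acid hydroxylase, averaged 0.817 ± 0.564 FPKM in TPN and 1.21 ± 0.460 FPKM in control (SD, n = 3 each). Cyp2s1 was under 0.5 FPKM in every rat, and Cyp2ab1, Cyp2g1, an olfactory form, and Cyp2w1 were listed at 0 in all rats.

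The tested Cyp3a genes, Cyp3a18 and Cyp3a62, had log2 fold changes above 0. The 3 Cyp3a rows summed to 73.8, 171 and 233 FPKM in TPN 1, 2 and 3, against 123, 72.4 and 126 FPKM in control 1, 2 and 3, with overlap and a ratio of the means of 1.48. Cyp3a18, a male-predominant testosterone hydroxylase, measured 64.8, 159.8 and 224 FPKM in the TPN rats, against 117, 65.9 and 122 FPKM in the control rats. TPN 2 and TPN 3 lay above all controls and TPN 1 below them. The log2 fold change was 0.43 (95% interval -0.69 to 1.54, limma adjusted p = 0.788). It was 0.94 without TPN 1, 0.053 without TPN 3 and 0.15 without control 2. Cyp3a62, a form known from rat intestine as well as liver, measured 8.83, 11.4 and 9.02 FPKM in the TPN rats, against 5.56, 5.68 and 4.03 FPKM in the control rats. It was the only tested gene of the 26 that was higher in TPN without overlap. The log2 fold change was 0.82 (SE 0.18, limma unadjusted p = 0.00175, adjusted p = 0.161), and 0.89 without TPN 1. Cyp3a9, a female-predominant form, measured 0.238, 0 and 0.134 FPKM in the TPN rats, against 0.359, 0.778 and 0.370 FPKM in the control rats, under the minimum for the test. Cyp3a2 and Cyp3a23/3a1, the main inducible forms of rat liver, were not analysed here.

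The promoters of Cyp2t1 and Cyp3a62 are shown as those of the gene with the smallest p and of the only gene higher without overlap, in the same RefSeq windows of GRCr8, at chr1:91575260-91575559 (+ strand) and chr12:21511513-21511812 (+ strand), with the same motifs in capitals.
Cyp2t1: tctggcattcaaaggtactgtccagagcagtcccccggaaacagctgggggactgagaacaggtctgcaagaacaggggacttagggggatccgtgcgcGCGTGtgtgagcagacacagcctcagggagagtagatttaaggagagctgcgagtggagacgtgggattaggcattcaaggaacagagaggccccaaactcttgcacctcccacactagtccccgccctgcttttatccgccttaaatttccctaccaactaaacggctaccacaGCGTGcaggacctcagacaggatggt
Cyp3a62: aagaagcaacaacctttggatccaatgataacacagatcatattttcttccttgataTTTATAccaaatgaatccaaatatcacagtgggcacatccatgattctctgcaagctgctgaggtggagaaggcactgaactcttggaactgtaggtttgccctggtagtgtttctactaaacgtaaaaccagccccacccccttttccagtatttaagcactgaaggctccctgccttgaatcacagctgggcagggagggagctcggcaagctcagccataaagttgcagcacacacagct
Cyp2t1 held GCGTG at 151 bases before and 25 bases after the start, and no CAAAGNNCA. Cyp3a62 held only a TATAAA match on the opposite strand, 193 bases before the start.

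**Figure D3:**
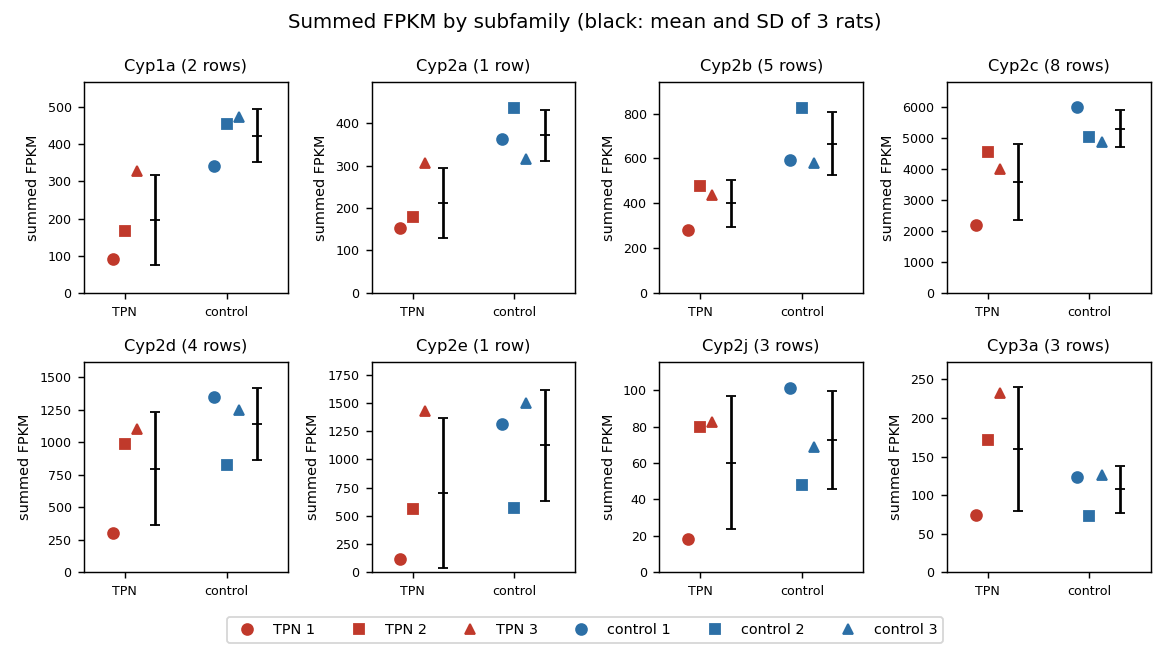
Summed FPKM of 8 subfamilies in every rat, TPN left and control right, with the mean and SD of the 3 rats in black. Cyp1a, Cyp2a, Cyp2b and Cyp2c do not overlap between groups, in Cyp2c because of Cyp2c7. In Cyp2b neither Cyp2b2 nor Cyp2b3 separates the groups alone, and the control 2 sum holds a Cyp2b2 value of 492 FPKM. Cyp3a has the higher mean in TPN, 159 ± 80.2 FPKM against 107 ± 30.3 FPKM in control.

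**Figure D4:**
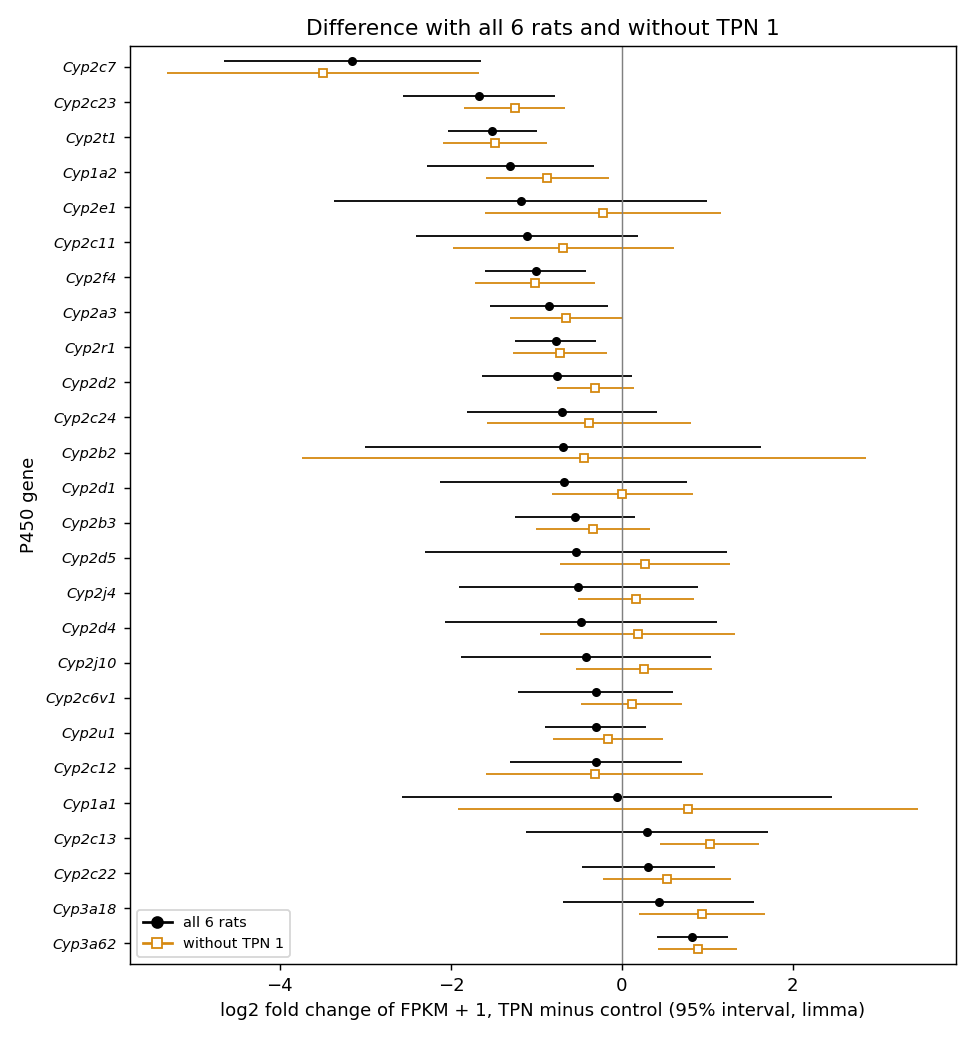
Log2 fold change of FPKM + 1, TPN minus control, for the 26 tested P450 genes with limma's 95% interval, from all 6 rats (black) and without TPN 1 (orange). Cyp2c7, Cyp2c23, Cyp2t1, Cyp1a2, Cyp2f4 and Cyp2r1 stay at -0.72 or below in both fits. Cyp2e1 is at -1.18 with all rats and -0.22 without TPN 1, and Cyp2d5 at -0.53 and 0.27.

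Forms known to differ between the sexes of adult rats were set side by side. The rats here were 4 weeks old by the labels, and whether the adult pattern holds at that age was not tested. Of 4 tested genes known as male forms in adult rats (Cyp2c11, Cyp2c13, Cyp2c22 and Cyp3a18), 3 had log2 fold changes above 0 and 1 below, and none reached an unadjusted limma p under 0.05. The 3 genes listed as female forms (Cyp2c7, Cyp2c12 and Cyp3a9) had lower means in TPN, but only Cyp2c7 was both tested and without overlap. Cyp3a62, higher in TPN without overlap, was placed in neither list. The sign of Cyp2c12 turned without control 1 (log2 fold change 0.099). Cyp2c7 was 7.57-fold lower without overlap, and Cyp2c12 averaged 443 ± 33.5 FPKM in TPN and 618 ± 342 FPKM in control, with overlap (SD, n = 3 each). Cyp3a9, under the minimum for the test, averaged 0.124 ± 0.119 FPKM in TPN and 0.502 ± 0.239 FPKM in control, without overlap (SD, n = 3 each). Neither tested female form passed limma's adjusted threshold. The Y-linked gene Eif2s3y was at 13.4 to 20.5 FPKM in TPN rats and 17.6 to 22.0 FPKM in control rats. Kdm5d, also Y-linked, was at 2.67 to 3.46 FPKM in TPN rats and 2.79 to 3.76 FPKM in control rats. Every rat of both groups thus held Y-linked transcripts, as male liver does.

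The partners of the P450 enzymes in electron transfer and heme supply were mostly lower, and none passed. Of 10 tested genes 9 had log2 fold changes below 0, with a median of -0.32, and 3 were lower at an unadjusted limma p under 0.05, against 7.01% of all features. These were Cyb5b, a cytochrome b5 (log2 fold change -0.66), Pgrmc1, a heme-binding membrane protein (-0.78), and Fech, the last enzyme of heme synthesis (-0.42). Por, the reductase itself, measured 55.4, 158 and 141 FPKM in the TPN rats, against 64.6, 158 and 147 FPKM in the control rats. The groups overlapped, and the log2 fold change was -0.095 (95% interval -1.26 to 1.07). Cyb5a, the main liver cytochrome b5, measured 181, 387 and 674 FPKM in the TPN rats, against 574, 485 and 652 FPKM in the control rats, with TPN 1 lowest. Alas1, which starts heme synthesis in liver, measured 39.0, 39.2 and 73.1 FPKM in the TPN rats, against 36.1, 136 and 36.2 FPKM in the control rats. Control 2, the rat with the highest Cyp2b2, was thus also highest for Alas1.

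**Figure D5:**
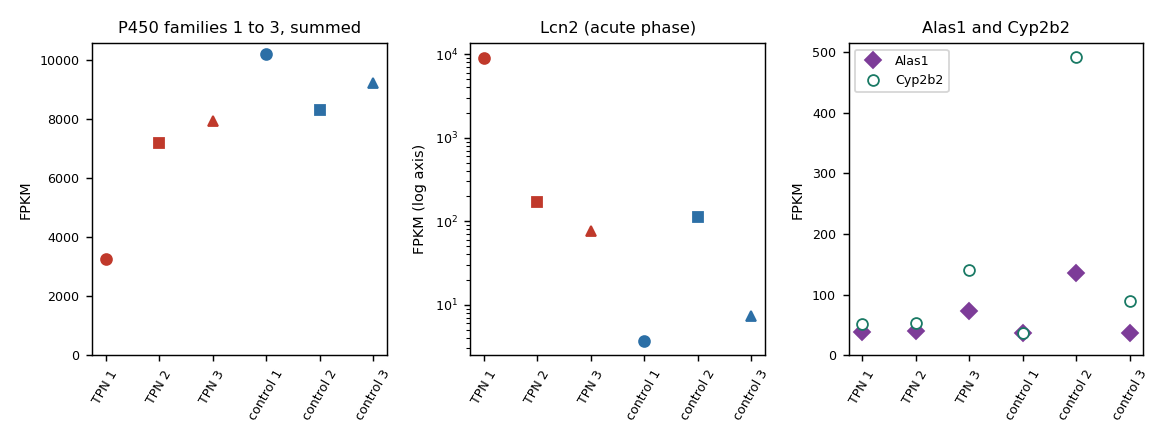
FPKM per rat, TPN rats left of control rats, of the 36 P450 genes summed, of the acute-phase gene Lcn2 (log axis) and of Alas1 and Cyp2b2. TPN 1 has the lowest P450 sum (3255 FPKM) and the highest Lcn2 (9127 FPKM), and control 2 the highest Cyp2b2 (492 FPKM) and Alas1 (136 FPKM).

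The transcription factors of P450 genes lay on both sides of 0. Of 28 tested regulators 11 had log2 fold changes above 0 and 17 below, with a median of -0.12 and a range from -1.11 (Dbp, 95% interval -4.06 to 1.83) to 0.83 (Onecut1, -0.73 to 2.40), both named after their values were seen. At an unadjusted limma p under 0.05, only Foxa3 was higher (0.74), against 4.44% of all features, and only Rxrg lower (-0.62), against 7.01%. None passed after adjustment. Hnf4a, the hepatocyte factor of many P450 promoters, measured 76.3, 103 and 140.1 FPKM in the TPN rats, against 94.5, 112 and 86.7 FPKM in the control rats. Nr1i2 (PXR) measured 25.7, 43.6 and 53.0 FPKM in the TPN rats, against 48.2, 40.4 and 58.1 FPKM in the control rats. Nr1i3 (CAR) measured 6.23, 12.2 and 16.8 FPKM in the TPN rats, against 10.99, 7.04 and 20.3 FPKM in the control rats, and the groups overlapped in all 3 genes. Ahr measured 12.4, 8.24 and 10.6 FPKM in the TPN rats, against 15.2, 21.2 and 10.1 FPKM in the control rats (log2 fold change -0.49, 95% interval -1.12 to 0.13). The glucocorticoid receptor Nr3c1 was not analysed here.

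A chosen list of other genes of drug metabolism, transport and the response to foreign chemicals was mostly lower in TPN. It mixes conjugation enzymes, transporters, dehydrogenases, Ephx1, Nqo1 and the stress gene Gadd45b, and 14 of its 20 genes were found. Of the 13 tested, 12 had log2 fold changes below 0, with a median of -1.10, and none passed. At an unadjusted limma p under 0.05, Abcc2 (-1.31), Abcc3 (-1.10), Ephx1 (-1.82) and Gsta3 (-2.14) were lower, against 7.01% of all features. Nqo1, a quinone reductase, was higher (1.24), against 4.44% of all features. Ephx1, the microsomal epoxide hydrolase that acts on P450 products, measured 42.5, 212 and 299 FPKM in the TPN rats, against 672, 315 and 572 FPKM in the control rats. It did not overlap between groups, with TPN 1 lowest and control 2 the lowest control.

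Position along the liver lobule was read from 2 lists without P450 genes. Among P450 genes Cyp2e1 and Cyp1a2 are known as pericentral, and Cyp2f2, the mouse relative of Cyp2f4, as periportal. All 11 tested pericentral genes had log2 fold changes below 0, with a median of -0.55. Of these, Oat (-1.88), Gulo (-1.14), Rhbg (-0.65) and Axin2 (-0.55) were lower at an unadjusted limma p under 0.05, against 7.01% of all features. Of 13 periportal genes 12 were below 0, with a median of -0.34. In that list Aldh1b1 fell (-2.04, limma adjusted p = 0.0278), where 0.22% of all features were called lower. Hal was at -1.14 and Pck1, of gluconeogenesis, at 0.92. Both lists were thus mostly below 0, against 49.1% of all features.

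Of 20 tested rows of acute-phase genes, 17 had log2 fold changes above 0, with a median of 0.84, and none passed. Those at an unadjusted limma p under 0.05 were Lbp (2.39), Fgg (1.20), Fga (1.16) and 1 of 2 rows of Cfb (0.74). Over all features 4.44% were higher at that p. The list summed to 129113, 63599 and 51225 FPKM in TPN 1, 2 and 3, against 28257, 71604 and 28899 FPKM in control 1, 2 and 3. TPN 1 was the highest rat and control 2 the second, above TPN 2 and TPN 3. TPN 1 was the lowest rat in 19 of the 26 tested P450 genes, against 31.4% of all features. Control 2 was the lowest control in 17 of the 26, or 65.4%, against 51.6% of all features. Among all 6 rats control 2 was the lowest in 2 of the 26, against 16.3% of all features. Its P450 sum of 8304 FPKM lay above the 7184 and 7933 FPKM of TPN 2 and TPN 3. The part of the acute-phase response in these values was not tested.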

How the data were processed

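RNA-seq of liver was taken from 3 TPN and 3 control rats, grouped by their titles. The authors deposited 1 table of FPKM. Per the submitters' processing notes, Bowtie 0.12.2, Cufflinks and the build Rnor_6.0 were used, in roles not given in the sources used here. Neither strandedness nor the annotation is given there, nor how reads matching several near-identical genes were assigned. Whole reads could not be recovered (at most 0.905% of the ratios of values under 0.3 FPKM fell in 1 bin of 0.01 on the log2 scale), so the depth is unknown and no interval for counting error is given.

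The members and gene lists were chosen with earlier results of these data known. Features averaging 1 FPKM or more over the 6 rats were tested as log2(FPKM + 1), which understates the change of low genes, with limma 3.58.1 (statmod 1.5.0, R 4.3.3) using trend and robust moderation and no term but the group. The p were 2-sided, with Benjamini-Hochberg adjustment over all features and a threshold of 0.05. On data simulated for TPN against control with 11362 features, the test found 28 of 100 genes changed by 1 and 88 of 100 changed by 2 on the log2 scale, with 5 unchanged genes among 121 called. An exact permutation test of 3 against 3 cannot go below p = 0.10, so none was used. The labels name separate rats but not litters or batches, so p-values measure the spread between these samples. Subfamily sums had no test. Values in every rat are given for P450 genes with a mean of at least 10 FPKM or an unadjusted p under 0.05, and Cyp1a1 and Cyp3a9 were added after their values were seen. Alternatives were another pseudocount (0.1), no filter or a minimum mean of 5 FPKM, median-ratio, quantile and TPM scaling, plain moderation, the replicate number as a block, each rat left out, and control 2 and TPN 1 left out together. Promoter sequences are from RefSeq (GRCr8) and were matched by symbol for 33 of the 36 genes. Figures were drawn with matplotlib 3.10.9.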

Additional observations from a re-analysis of the deposited data

How the results depend on the processing

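The count of P450 genes past the threshold was 0 with all rats, 0 to 1 when each rat was left out (Cyp2t1 without control 2) and 2 without control 2 and TPN 1 together (Cyp2t1 and Cyp2c23). The count at an unadjusted p, 8 with all rats, was 8 to 12 when each rat was left out, 10 without both, and 7 with a minimum mean of 5 FPKM, where 23 genes were tested. The median log2 fold change was -0.61 with all rats and -0.97 to -0.26 when each rat was left out. Of all features, 28 passed with all rats, 0 to 46 when each rat was left out, 122 without control 2 and TPN 1, 18 with a pseudocount of 0.1, 6 with a minimum mean of 5 FPKM, 8 with plain moderation, and 0 without a filter, with median-ratio scaling or with quantile normalisation. By limma at an unadjusted p under 0.05 there were 1300 features, 786 with a minimum mean of 5 FPKM, 1898 without a filter, 1573 and 1591 with median-ratio scaling and quantile normalisation, and 638 to 1483 when each rat was left out. The cause of these shifts was not tested. With each rat left out, the ratio of TPN over control ran from 0.443 to 0.601 for Cyp2r1, from 0.264 to 0.357 for Cyp2t1 and from 0.564 to 0.817 for all 36 genes. The Cyp2b ratio was 0.782 without control 2 and TPN 1. The Cyp2j ratio, 0.830 with all rats, was 1.03 without control 1 and 1.12 without TPN 1. No scaling turned the sign of a P450 gene. Leaving out 1 rat gave log2 fold changes from -1.11 to 0.77 for Cyp1a1, -1.52 to 0.34 for Cyp2b2, -0.57 to 0.12 for Cyp2c6v1, -0.81 to 0.099 for Cyp2c12, -0.14 to 1.03 for Cyp2c13, -0.054 to 0.53 for Cyp2c22, -1.05 to 0.0035 for Cyp2d1, -0.96 to 0.18 for Cyp2d4, -0.97 to 0.27 for Cyp2d5, -0.79 to 0.26 for Cyp2j10 and -0.93 to 0.16 for Cyp2j4. Without control 2 and TPN 1 the sign turned for Cyp2b2 (0.59), Cyp1a1 (1.03), Cyp2c6v1 (0.29), Cyp2c24 (0.014) and Cyp2j10 (0.013). As FPKM hold no counts, depth limits the low genes to an unknown degree.

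The labels number the rats 1 to 3 in each group without saying whether the numbers pair them. Deviations of same-numbered rats correlated at -0.214, -0.143 and 0.321, and 2 of the 6 rats correlated best with their own number in the other group. Each correlation sets 1 rat against 1 rat, so these values cannot decide whether the rats were paired. With the number as a replicate block 1 P450 gene passed, Cyp2c7 (limma adjusted p = 0.0235), and 58 features in all.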

Other observations

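The remaining P450 families (4 and above) served as the nearest comparison. Of 34 rows 20 were tested, 15 had log2 fold changes below 0, or 75.0%, and the median was -0.32, against 84.6% and -0.61 in families 1 to 3. None passed. At an unadjusted limma p under 0.05, 4 were lower and 1 higher, against 7.01% and 4.44% of all features. Without overlap between the groups, 5 were lower and 2 higher, against 9.09% and 8.02% of all features. In families 1 to 3, 8 of the 26 were lower and 1 higher without overlap. TPN 1 was the lowest rat in 7 of the 20, against 19 of the 26 genes of families 1 to 3 and 31.4% of all features. The difference between these sets was not tested.

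Markers of other liver cells were counted in the same fit. Of 10 Kupffer cell and macrophage genes, 7 had log2 fold changes above 0 and 3 below, with a median of 0.20. Of these, Marco (0.95), Cd68 (0.65) and Cd163 (0.57) were higher in TPN without overlap, against 8.02% of all features, and none passed. The other 7 overlapped and lay between -0.28 (Clec4f) and 0.41 (Adgre1). Of 8 stellate and fibroblast genes, 7 were below 0, with a median of -0.49. Lrat (-1.42), Col1a2 (-0.80) and Col3a1 (-0.74) were lower without overlap, against 9.09% of all features, and the list summed to 86.1, 116 and 88.0 FPKM in TPN rats, against 167, 198 and 118 FPKM in control rats. Both tested cholangiocyte genes, Epcam (-0.70) and Krt19 (-0.47), were lower without overlap, against the same 9.09% of all features. All 6 tested erythroid genes were also lower without overlap, and 4 fell by limma's adjusted p, against 0.22% of all features. Neither of the 2 tested neutrophil genes passed, and their list summed to 41.4, 14.3 and 14.4 FPKM in TPN rats, against 6.16, 25.5 and 8.096 FPKM in control rats, highest in TPN 1. Endothelial genes (6 tested), lymphocyte and small intestine genes (1 tested each) gave none at an unadjusted limma p under 0.05. The part of these cells in the P450 values was not tested.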
